A study of Mus musculus with 6 samples.

Results

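Fos, Egr1, Arc, Junb and Nr4a1 are immediate early genes, whose mRNAs rise within minutes of neuronal firing without new protein synthesis. Their m6A-seq peaks were read here from whole mouse brain, as the peaks whose summit, the base of highest enrichment, lay in 1 mm9 window per gene. The windows were chr12:86814500-86818500 for Fos, chr18:35020500-35025000 for Egr1, chr15:74499000-74503500 for Arc, chr8:87500500-87503000 for Junb and chr15:101084500-101105500 for Nr4a1. The list of m6A IP 1 had 15 of its 32858 peaks there, that of m6A IP 2 had 16 of 32671 and that of m6A IP 3 had 13 of 24686. Peaks with 1 base or more in common were joined across the lists, which gave 18 regions in these windows, of 43377 in the series.

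The samples were 3 libraries of polyadenylated brain RNA immunoprecipitated with an m6A antibody and 3 input libraries made without antibody. The series concerns mRNA methylation in the maturation of oligodendrocytes and in myelination. No genotype, strain, age or treatment is given in the labels. The letters ctl in a run name of the file headers are unexplained, and no control status was assumed from them. All libraries form 1 condition, so the replicates can be compared with each other only. Nothing in the labels says that they came from separate animals, and the spread between them may be technical. The IP libraries kept 5676427, 6493926 and 6327958 tags after the authors' removal of duplicates, and the inputs 7436658, 11589632 and 7185922. The lists carry no gene names, so neither the brain label nor the genes were checked against markers, and the windows alone tie a peak to a gene.

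m6A is a methyl group placed on adenosines of mRNA by a nuclear writer complex, mostly within a short consensus sequence and most densely around stop codons and in long exons. Reader proteins of the YTH family bind it and shorten the life of many of the mRNAs that carry it. Fos and Junb are subunits of the AP-1 transcription factor, Egr1 is a zinc finger transcription factor and Nr4a1 is an orphan nuclear receptor. Arc is a postsynaptic protein, derived from a retrotransposon Gag protein, whose mRNA is carried into dendrites and which takes part in the removal of AMPA receptors from the synapse. Their mRNAs are short-lived.

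A form of the consensus is shown first, because the antibody's target usually sits in that kind of sequence. Only the exact letters GGACT were searched, on the sense strand of the longest complete coding transcript of each gene in GENCODE M21 (GRCm38). Other forms of the consensus were not counted, so an absence of this motif is not an absence of consensus sites. The site nearest the stop codon is printed here for 4 of the genes, with the motif in capitals.
Fos: tgggcctcaaGGACTtgcaagcatc
Arc: ttgccaactaGGACTtgagctgggg
Junb: ctcacacactGGACTccggcccgcc
Nr4a1: tcaagttggaGGACTtggtaccccc
The motif began 156 bases after the first base of the stop codon in Fos, 64 bases after it in Arc and 124 bases after it in Junb. In Nr4a1 it began 58 bases before the stop codon, inside the coding sequence. The nearest Egr1 site, which is not printed, was farther off, 248 bases after the first base of the stop codon. The transcripts of the printed sites lie on the plus strand of chromosome 12 (Fos) and chromosome 15 (Nr4a1) and on the minus strand of chromosome 15 (Arc) and chromosome 8 (Junb).

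All 5 mRNAs held the motif, as did 87.6% of the longest complete coding transcripts of 21767 genes. The Fos mRNA, of 2108 bases, held 4 sites, 2 in the coding sequence and 2 in the 3′UTR. The Egr1 mRNA, of 4484 bases, held 5, of which 3 were in the 5′UTR, 1 in the coding sequence and 1 in the 3′UTR. The Arc mRNA, of 3055 bases, held 3 sites, all in the 3′UTR and 0 in the coding sequence. The Junb mRNA, of 1809 bases in 1 exon, held 1 site in each of the 3 parts. The Nr4a1 mRNA, of 2553 bases in 8 exons, held 4 sites, all in the coding sequence. Per kb of mRNA this came to 1.90 sites in Fos, 1.66 in Junb, 1.57 in Nr4a1, 1.12 in Egr1 and 0.982 in Arc, against a median of 1.01 over all these transcripts with quartiles of 0.561 and 1.504. The densities of Fos, Junb and Nr4a1 were thus above the upper quartile, and Arc was next to the median. Motif positions are on GRCm38 transcripts and peaks on mm9, and they were not joined, so no site here is matched to a peak.

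**Figure D1:**
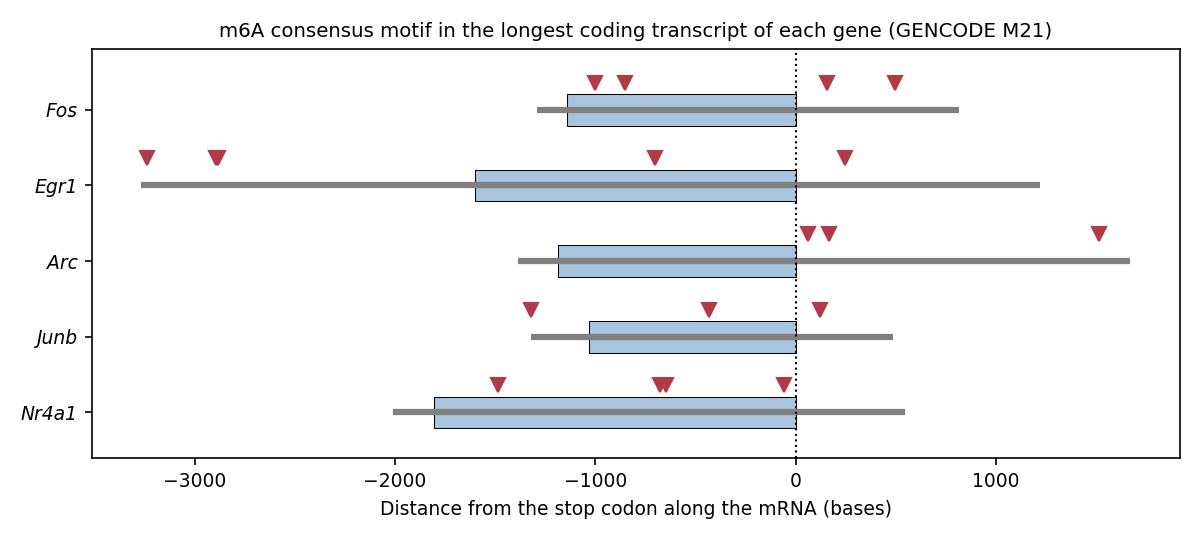
Positions of the exact motif GGACT (triangles) along the longest complete coding transcript of each gene, in bases from the stop codon. The coding sequence is a box and the UTRs are lines, and other forms of the consensus are not drawn. Arc holds its 3 sites after the stop codon, and Nr4a1 its 4 sites before it.

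Of the 18 regions, 9 were found in all 3 replicates, 5 in 2 and 4 in 1. In the whole series 38.6% of regions were found in all 3. At least 2 replicates held 14 of the 18, beside 61.2% of all regions. With so few regions, several of them on 1 mRNA, no test was made of these differences. Where peaks had to share 50% or more of each other's length, the count was 6 of 25, beside 24.6% of all regions, so the higher share at these genes depended on the overlap rule. Recurrence was uneven across the genes. Egr1 had 3 of 3 regions in all 3 replicates, Junb 3 of 4, Fos 2 of 3, Arc 1 of 5 and Nr4a1 0 of 3. No other peak summit lay closer than 6304 bases to a window, the distance of the nearest one below Junb, and around Fos the nearest on either side were 99030 and 120272 bases away. Regions are numbered within a gene in the direction of transcription, and positions are given from the upstream edge of the window. That edge is not the start site. The GENCODE genes of Egr1 (5162 bases) and Junb (4235 bases) are longer than their windows of 4501 and 2501 bases, so those windows do not hold the whole annotated gene.

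**Figure D2:**
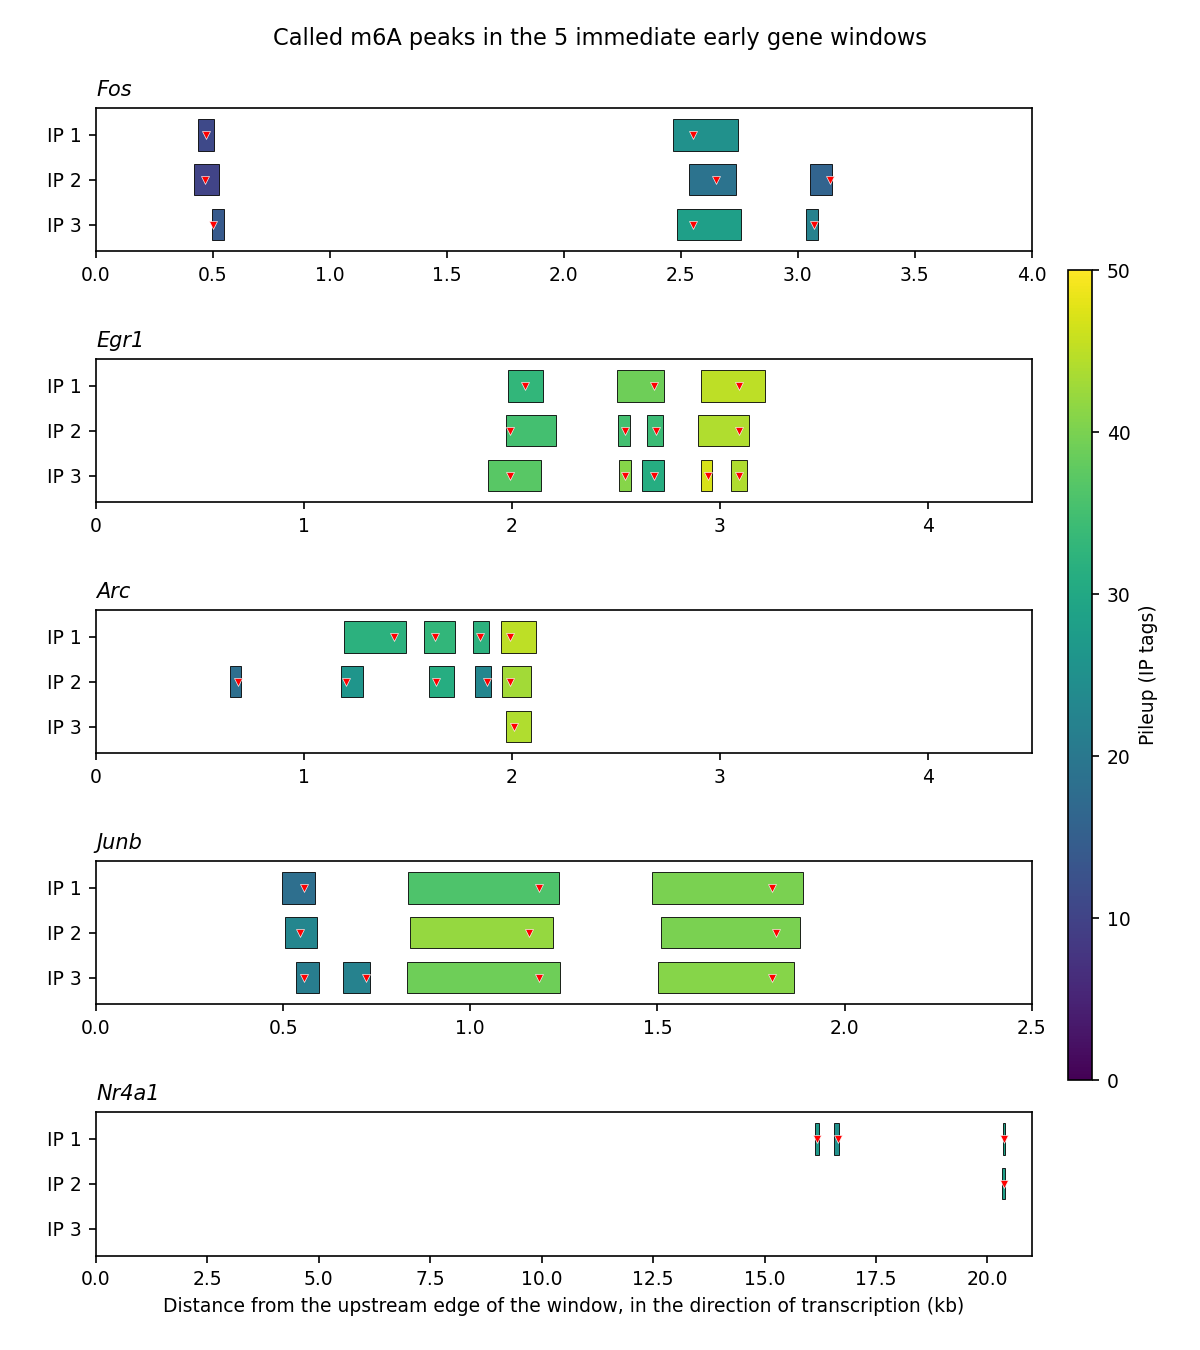
Called peaks in each window by replicate, in kb from the upstream edge of the window in the direction of transcription. Bars are peaks coloured by pileup, red triangles are summits, and axes differ between genes. Every Egr1 region and 3 of the 4 Junb regions have a peak in each replicate, with some Egr1 regions split into 2 peaks, whereas Arc has 1 peak and Nr4a1 0 peaks in IP 3.

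Junb had the highest mean folds of the 5 genes, in a pair of wide regions. Pileup, the number of IP tags over a base, was 40, 40 and 41 in m6A IP 1, 2 and 3 for Junb region 4 (chr8:87501112-87501515, 404 bases). The replicates were nearly equal, with a mean of 40.3 ± 0.577 (SD, n = 3) and a 95% exact Poisson interval of 28.6 to 54.5 on a value of 40. Such intervals cover counting error only. Its fold enrichment, the authors' ratio of pileup to local input background, was 7.35, 6.21 and 5.86, a mean of 6.47 ± 0.777. Junb region 3 (chr8:87501760-87502168, 409 bases) had pileups of 36, 42 and 39 and folds of 6.68, 7.61 and 5.58, a mean fold of 6.62 ± 1.01. The regions exchanged places between replicates, and neither was higher in all 3. Their mean folds stood at percentiles 72.7 and 74.7 of the 16757 regions found in all 3 replicates, whose median was 5.13. Among regions whose mean background was within 25% of theirs they stood at percentiles 93.0 and 92.3. Summits repeated within 10 bases in region 4 and within 28 bases in region 3, and the median summits of the pair were 623 bases apart.

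Upstream of them, Junb region 1 (chr8:87502406-87502503) was a 98-base region with pileups of 18, 23 and 21, a mean of 20.7 ± 2.52. Each of these was below every pileup of regions 3 and 4. Its mean fold was 4.05 ± 0.763. Its summit moved by 11 bases between replicates. Region 2 was called in m6A IP 3 only, with a pileup of 22. Peaks covered 35.8%, 33.7% and 36.1% of the Junb window in the 3 lists, a larger share than in any other of the windows. The Junb window is also the shortest, at 2501 bases, and the Junb mRNA of 1809 bases is 1 exon.

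Fos, the partner of Junb in AP-1, showed lower pileups at 2 recurrent regions about 2 kb apart. Region 2 (chr12:86816967-86817255, 289 bases) had pileups of 25, 19 and 28, a mean of 24.0 ± 4.58 (SD, n = 3), equal to the median of the mean pileups over all regions found in all 3 replicates. Its folds were 6.35, 5.07 and 3.605, a mean of 5.01 ± 1.38. The highest pileup and the lowest fold were both in m6A IP 3, where the input background was 7.04 tags against 3.09 and 2.94. The value of 7.04 rests on 8 input tags, whereas the others are averages over 1000 bases. Summits fell on the same base, 86817054, in m6A IP 1 and 3 and 96 bases downstream in m6A IP 2. The upstream region 1 (chr12:86814920-86815045, 126 bases) had pileups of 11, 10 and 14, the lowest of any recurrent region in the 5 windows. Its folds of 6.81, 3.39 and 4.12 rested on 1, 4 and 3 input tags, so that a difference of a few tags sets their order. Its peaks overlapped only in part, and with an overlap of at least 50% of both peaks region 1 was no longer found in all 3 replicates. The median summits of regions 1 and 2 were 2083 bases apart. Region 3 (chr12:86817536-86817645), 549.5 bases past region 2 by median summit, had pileups of 16 and 22 in m6A IP 2 and 3 and no peak in m6A IP 1. At a like background (within 10%) the lowest pileup called in m6A IP 1 was 14. At such a background, a pileup near those of the other replicates could have been called there. The list gives no background where no peak was called, so that of m6A IP 1 is not known.

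Egr1 had the region with the highest mean pileup of the 5 genes, and the highest mean input backgrounds. By median summit, its 3 regions lay 1993, 2546 and 3092 bases into the window from the upstream edge, 553 and 546 bases apart. Their summits ranged over 71, 140 and 152 bases between replicates. In m6A IP 1 the summits lay 2063, 2684 and 3093 bases into the window, so the near-even spacing depended on the summits taken. Region 3 (chr18:35023395-35023717, 323 bases) had pileups of 45, 44 and 47, a mean of 45.3 ± 1.53 (SD, n = 3), at percentile 97.2 of all regions found in all 3 replicates. Its folds were 3.98, 4.25 and 3.32, a mean of 3.85 ± 0.481, at percentile 23.9. High in pileup and low in fold, it stood at percentile 81.3 in fold among regions of like background. Region 2 (chr18:35023007-35023232) had pileups of 39, 35 and 41 and a mean fold of 2.91 ± 0.309. Region 1 (chr18:35022386-35022713) had pileups of 33, 35 and 37 and a mean fold of 2.996 ± 0.448. In each replicate region 3 was above both others in pileup and fold. Regions 2 and 3 were called as single peaks in some lists and as pairs in others. Region 2 was 1 peak in m6A IP 1 and 2 peaks in each of the other lists, and region 3 was 2 peaks in m6A IP 3 only. Requiring an overlap of at least 50% of both peaks therefore left 1 Egr1 region, region 1, in all 3 replicates. The leading region 3 was then found in m6A IP 1 and 2 only.

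Arc carried 1 region that recurred and a run of regions upstream of it that did not. Region 5 (chr15:74501387-74501554, 168 bases) had pileups of 45, 43 and 44, a mean of 44.0 ± 1 (SD, n = 3), at percentile 96.0 of all regions found in all 3 replicates. Its summits lay within 20 bases. Its folds were 4.56, 4.99 and 3.19, a mean of 4.25 ± 0.942, with m6A IP 3 lowest. The pileups did not differ beyond counting error, while the background was 9.08, 7.82 and 13.1 tags.

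The other Arc regions were absent from the list of m6A IP 3. Region 4 (chr15:74501602-74501686) had pileups of 32 and 23 in m6A IP 1 and 2, region 3 (chr15:74501777-74501922) 33 and 31, and region 2 (chr15:74502010-74502323) 32 and 26. Region 1 (chr15:74502806-74502855) was called in m6A IP 2 only, with 18 tags. Between regions 2 and 5 the median summits were 313.5, 231 and 128 bases apart, closer than in the other genes except for regions 1 and 2 of Junb. Without m6A IP 3, Arc had 4 regions found in both remaining replicates, in place of 1. At a background like that of m6A IP 1 and 2 in these 3 regions, the lowest pileups called in m6A IP 3 were 24 for region 4, 21 for region 3 and 22 for region 2. At the background of region 5 in m6A IP 3, 13.1 tags, the lowest called was 28. Mean pileups where called were 27.5, 32.0 and 29.0 for regions 4, 3 and 2. Each was above the lowest called at a like background. Against the value of 28, region 4 was below and regions 3 and 2 were above. The list gives no pileup where no peak was called, so whether IP tags were absent there in m6A IP 3 cannot be told.

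Nr4a1 had no region in all 3 replicates. Region 3 (chr15:101104822-101104895, 74 bases), near the downstream end of the window, had pileups of 29 and 28 in m6A IP 1 and 2 with summits 3 bases apart. Its folds of 3.81 and 3.75 were equally close, and m6A IP 3 had no peak anywhere in the window. At a like background, 6.80 tags, the lowest pileup called in m6A IP 3 was 18. Regions 1 and 2 were called in m6A IP 1 only, with pileups of 27 and 25 and folds of 2.76 and 2.56. Without m6A IP 3, Nr4a1 had 1 region found in both remaining replicates. All 4 Nr4a1 peaks lay in the last 5 kb of the 21001-base window, and the GENCODE gene spans 20527 bases for an mRNA of 2553.

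**Figure D3:**
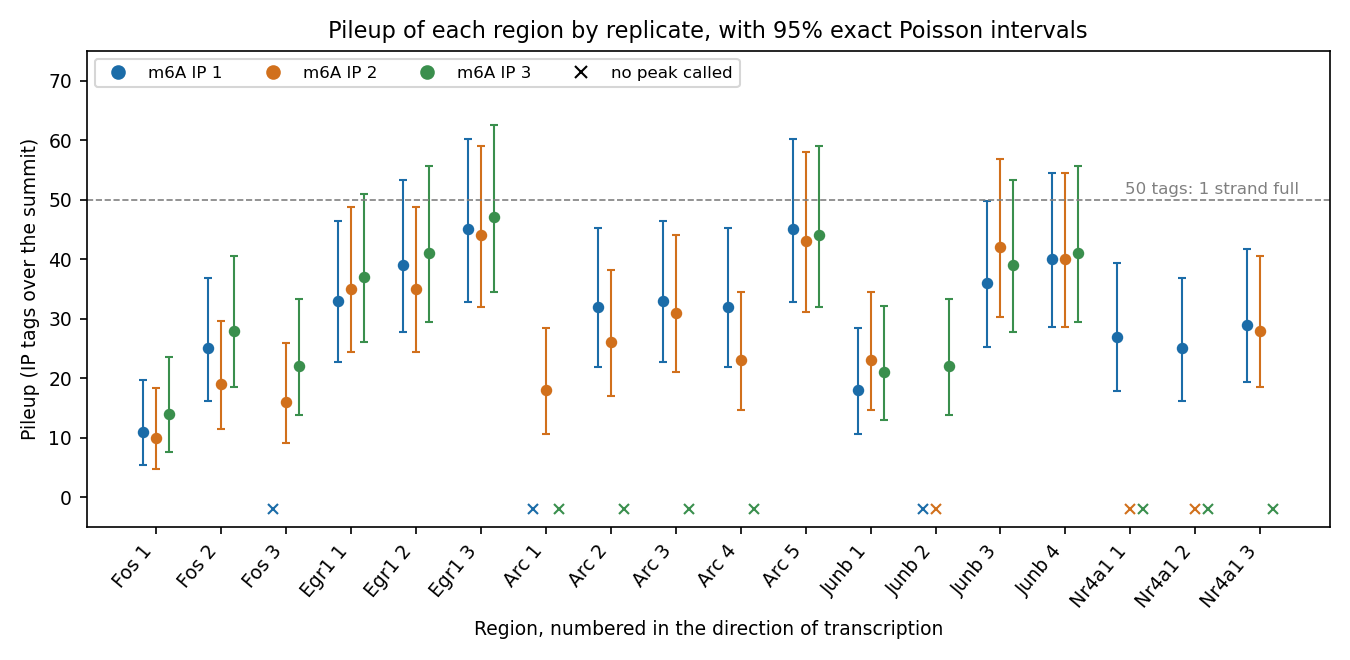
Pileup in IP tags of each of the 18 regions in each replicate, with 95% exact Poisson intervals, and crosses where no peak was called. The dashed line marks 50 tags, the most that 1 strand can give, and higher pileups occur in the whole lists. Egr1 3 and Arc 5 sit just below that line in all 3 replicates, and Fos 1 is lowest.

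By pileup of the leading region, the order was Egr1 (45.3), Arc (44.0), Junb (40.3), Nr4a1 (28.5, 2 replicates) and Fos (24.0). Egr1 and Arc did not differ beyond their spread, and both were above Junb in every replicate by 3 to 6 tags, which is less than the counting error of a single value. Nr4a1 and Fos overlapped. With tags of 50 bases and at most 1 tag per position, 1 strand can give no more than 50 tags over a base. The leading regions of Egr1, Arc and Junb were near that value. It is not a ceiling of the pileup, as the highest pileups in the whole lists were 95, 96 and 92 tags. The part of the 1-strand limit in the order of these genes was not tested. By fold the order was different, with Junb first (6.47), then Fos (5.01), Arc (4.25), Egr1 (3.85) and Nr4a1 (3.78). The Nr4a1 value is the mean of m6A IP 1 and 2 only. Within each replicate Junb was above Fos, and Fos was above Arc, by as little as 5.07 against 4.99 in m6A IP 2. Arc was above Egr1 in m6A IP 1 and 2 and below it in m6A IP 3. The last 2 places rest on unlike replicates, since the Egr1 mean includes m6A IP 3. With no added 1, pileup over background was 4.19 for Nr4a1 in its 2 replicates and 4.11 for Egr1 in all 3. In m6A IP 1 and 2, the fold of Egr1 was above that of Nr4a1, at 3.98 against 3.81 and 4.25 against 3.75.

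A −log10 q of at least 10, where q is the peak caller's adjusted p-value, was reached by 5 of the 15 peaks of m6A IP 1 in these windows. In m6A IP 2 it was 4 of 16 and in m6A IP 3 it was 2 of 13. In the whole lists of m6A IP 1, 2 and 3, 22.8%, 22.0% and 15.3% of peaks reached it. Junb regions 3 and 4 did so in all 3 replicates, with values of 14.1 to 20.995. The leading regions of Egr1 and Arc did so in m6A IP 1 and 2 only, and that of Fos in m6A IP 1 only. In m6A IP 3 they had 8.56, 7.44 and 5.68.

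**Figure D4:**
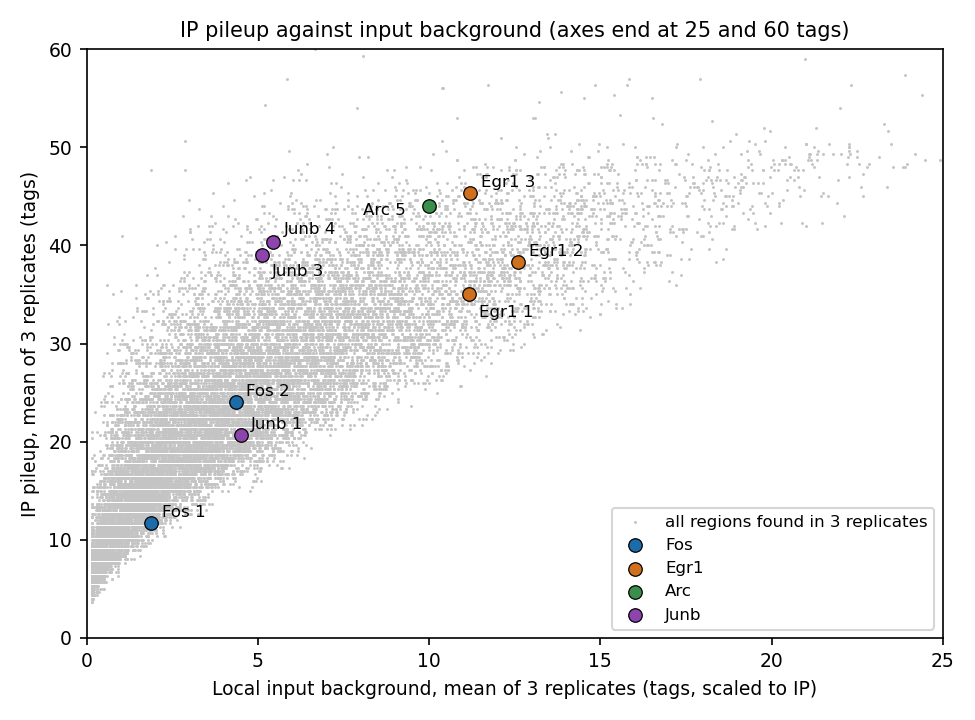
Mean IP pileup against mean local input background, both in tags, for the regions found in all 3 replicates (grey) and the 9 regions of the immediate early genes (coloured). The axes end at 25 and 60 tags, and 40 regions lie beyond them. Junb 3 and Junb 4 lie near the top of the grey points at their background, and the 3 Egr1 regions lie far to the right.

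The input background, the local level of fragmented RNA without antibody, separated the genes as well. For the 9 recurrent regions the mean background ran from 1.88 tags (Fos region 1) to 12.6 tags (Egr1 region 2), and the median over all regions found in all 3 replicates was 3.94. The 3 Egr1 regions, at 11.2, 12.6 and 11.2 tags, and Arc region 5, at 10.01 tags, stood between percentiles 88.0 and 93.8. The 3 Junb regions, at 4.501, 5.12 and 5.45 tags, and Fos region 2, at 4.36 tags, were between percentiles 54.3 and 64.2. In pileup 6 of the 9 were above the median of all regions, and in fold 7 were below it.

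Replicate 3 stood apart at these genes. In 7 of the 9 recurrent regions the background was highest in m6A IP 3, and over all regions found in all 3 replicates that was so for 37.1%. The background in m6A IP 3 over the mean of the other replicates was 2.34 for Fos region 2, 1.76 for Fos region 1 and 1.55 for Arc region 5. It was 1.10 to 1.34 for the 3 Egr1 regions and for Junb regions 3 and 4, and 0.706 for Junb region 1. The median over all regions was 1.01, with quartiles of 0.757 and 1.27. Fos region 2 was at percentile 96.8, and Junb region 1 at percentile 20.95, so the pattern did not hold in every region. In Fos region 2 the background of m6A IP 3 was a whole number of input tags, 8 before scaling. In m6A IP 1 and 2 it came from 81 and 105 tags in 1000 bases, so its ratio of 2.34 may compare windows of unlike width. Junb region 3 and Egr1 regions 1 and 2 also mixed both kinds of background. Regions of 1 gene share their RNA, and each background is the highest of several windows, so these are not 9 separate observations and no test was made. The pattern was chosen after the values were seen.

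At 2 sites the background could be followed over nearly the same 1000 bases of input in all replicates. Around the summit of Arc region 5 the 3 inputs held 238, 279 and 298 tags. Per 1000000 input tags kept, this was 32.0 (95% exact Poisson interval 28.1 to 36.3), 24.1 (21.3 to 27.1) and 41.5 (36.9 to 46.5). The intervals of the 3 inputs did not overlap, with replicate 3 highest and replicate 2 lowest. Around the summit of Egr1 region 3 that lay within 3 bases in the 3 lists, the inputs held 277, 342 and 312 tags, or 37.2 (33.0 to 41.9), 29.5 (26.5 to 32.8) and 43.4 (38.7 to 48.5) per 1000000. The order was the same, and the intervals of replicates 1 and 3 overlapped. The input of replicate 2 was sequenced deepest, with 36372297 tags before duplicate removal against 21820721 and 21529770, and removal takes more from a deeper library. The part of this in the low values of replicate 2 was not tested. Inputs 1 and 3 had nearly the same depth.

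IP pileup did not follow the background in every region. Arc region 5 and Junb region 3 had pileup ratios of 1 at background ratios of 1.55 and 1.34, and Junb region 1 had 1.02 at 0.706. Fos regions 1 and 2 had 1.33 and 1.27 at 1.76 and 2.34. Pileups of Arc region 5 (43 to 45) and Junb region 3 (36 to 42) lay below the 50 tags that 1 strand can give. Higher pileups occur in the whole lists. The part of that limit in their ratios was not tested. In all 9 recurrent regions the pileup of m6A IP 3 was at least the mean of m6A IP 1 and 2, at ratios of 1 to 1.33, and over all regions found in all 3 replicates 26.1% reached a ratio of 1. The median ratio of all regions was 0.915. Among the 2990 regions with a mean pileup of at least 35 tags, which include 6 of the 9, the share was 23.8%. The fold was lowest in m6A IP 3 in 5 of the 9, beside 48.02% of all regions. These counts cover only regions with a peak in m6A IP 3, which leaves out Nr4a1 and Arc regions 1 to 4. In bulk tissue, more cells with an mRNA and more of it per cell cannot be told apart, and the labels give no handling time or state of the animals.

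**Figure D5:**
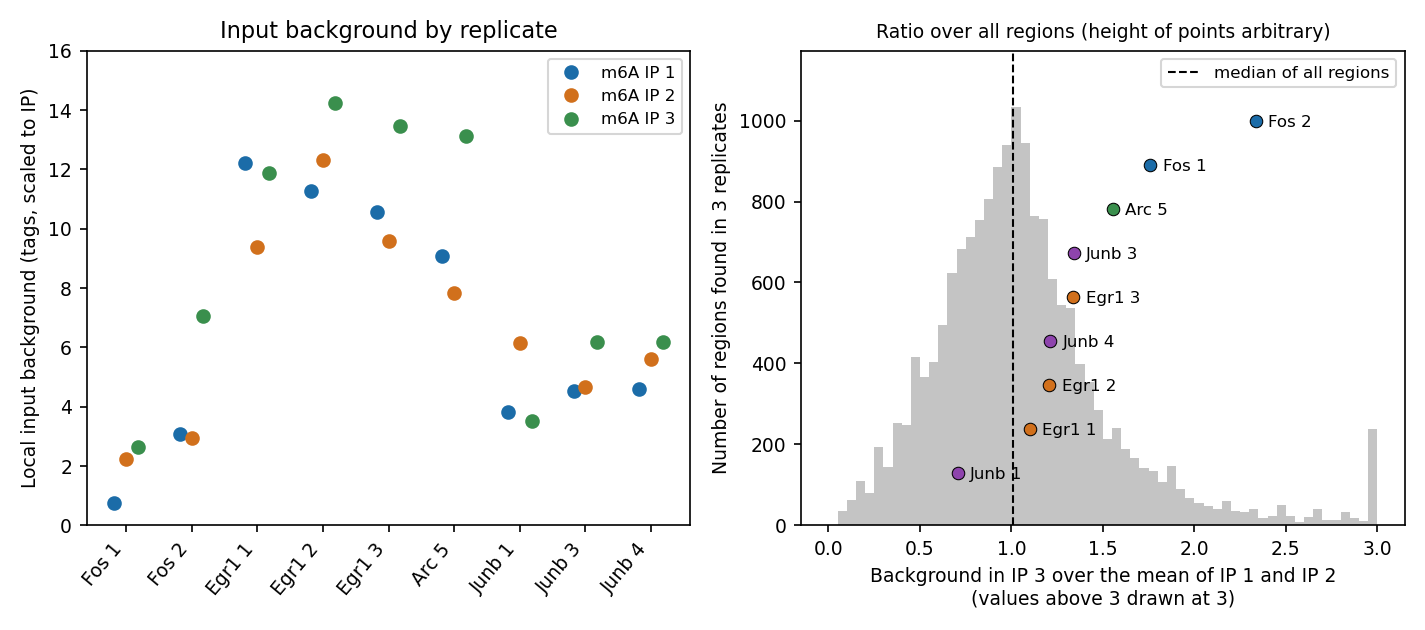
Left, local input background in tags for the 9 recurrent regions in each replicate. Right, the background of IP 3 over the mean of IP 1 and IP 2, with all regions found in 3 replicates as the histogram and the 9 regions as points. Replicate 3 is highest in 7 of 9, and Junb 1 lies on the other side of the median of 1.01.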

How the data were processed

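Peaks were called separately in each replicate, 1 IP library against 1 input, with MACS 2.1.0.20151222, a q-value cutoff of 0.05, tags extended to 50 bases and at most 1 tag per position, per the file headers. TopHat2 2.1.0 and build mm9 are named in the submitters' processing notes, while alignment settings are not stated in the labels or headers. The pileup is a coverage signal deposited by the authors, not scaled because each IP was the smaller library. The fold is the authors' ratio, (pileup + 1) / (background + 1), and the deposited −log10 p-value and −log10 q-value are the peak caller's.

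The background was recovered from the pileup and fold, and Poisson p-values from it matched the deposited ones within 6.71e-05 on the −log10 scale. Divided by the input scale (0.763, 0.560 and 0.881), it was a whole number of tags, within 0.01, for 28 of the 44 member peaks. For the other 16 it was a whole number of tags in 1000 bases.

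Peaks of the whole lists were merged and then assigned to the windows by summit. A region's pileup and fold are the highest of its peaks in a replicate, and its background is that of the peak with the highest pileup. Percentiles are over all regions found in all 3 replicates. Merging was tested on simulated peaks. The annotation at hand is GRCm38, so it gave only strand, lengths and motifs, and no mm9 position was compared with it. The genome sequence under the peaks was not used here. All 5 genes are named and every region described. The members and windows were chosen with earlier results of these data known. With 1 condition no test between groups was made. Alternatives changed the threshold, overlap, replicates required, list length, window edges, scaling and the 1 added to the fold, and left out each replicate. Tables were computed in Python 3.11.15 with pandas 2.3.3 and numpy 2.4.6, intervals with scipy 1.17.1 and figures with matplotlib 3.10.9.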

Additional observations from a re-analysis of the deposited data

How the results depend on the processing

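Regions found in all 3 replicates were 9 of 18, beside 38.6% of all regions. With a −log10 q of at least 10 they were 2 of 5 (all regions 18.6%), and with a fold of at least 4 they were 2 of 7 (25.4%), both times Junb regions only. Fewer peaks enter these settings by construction. When 2 replicates were enough they were 14 of 18 (61.2%). With a reciprocal overlap of at least 50% they were 6 of 25 (24.6%), so the share was no longer above that of all regions. With lists of equal length they were 7 of 14 (36.8%), and windows widened by 500 bases or any overlap with the window gave 9 of 18. Leaving out 1 replicate gave 9 to 13 of 17, namely 11, 9 and 13 without m6A IP 1, 2 and 3, beside 49.6%, 49.8% and 57.8% of all regions. Mean pileups of the leading regions moved by less than 1 SD with scaling and with a reciprocal overlap of at least 50%. Under that overlap the Egr1 value rested on m6A IP 1 and 2 only. Leaving out 1 replicate cannot move such a mean by 1 SD, so those runs could not show a larger change. Scaled to the mean IP library size, the SD of the pileup rose from 1 to 4.19 for Arc and from 0.577 to 2.77 for Junb. Without the added 1, the mean fold was 7.51 for Junb region 4 and 4.19 for Nr4a1 region 3. This placed Nr4a1 above Egr1 (4.11), as did leaving out m6A IP 2 (3.81 against 3.65). In both cases the Egr1 mean included m6A IP 3, where Nr4a1 had no peak. Without m6A IP 3 and with the added 1, the mean fold was 4.11 for Egr1 and 3.78 for Nr4a1. The folds of Fos, Egr1 and Arc moved by less than 1 SD without the added 1. Leaving out 1 replicate could not move them by 1 SD. No paired analysis was possible because the lists form 1 condition with no second group to pair. Regions were set against each other within replicates in the report. Pileups of 10 to 47 tags limit the precision of every value.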
